A study of Homo sapiens with 11 samples.

Results

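The genes described here are 29 transcriptional targets of the tumour suppressor p53, followed by RNA sequencing in 2 estrogen receptor positive human breast cancer lines in which nemo-like kinase (NLK) was lowered with small interfering RNAs (siRNAs) or which were given tamoxifen or VX-702. They were taken as a list of symbols, and each of the 29 matched 1 of the 59087 gene rows counted in every library. The 11 groups held 1 library each. BT483 cells, a ductal carcinoma line, were transfected with NLK siRNA type 1, with NLK siRNA type 2, with control siRNA plus 0.5 µM tamoxifen, or with control siRNA alone. T47D-TamR cells, a tamoxifen-resistant derivative of T47D, formed the same 4 groups and a drug arm without siRNA, which received 0.5 µM VX-702, DMSO plus 0.5 µM tamoxifen, or DMSO alone. All cultures were deprived of estrogen for 48 h, siRNAs were used at 10 nM for 72 h, and the control siRNA was a non-targeting pool. How long the drug arm was exposed is not given in the sources used here. T47D-TamR is 1 derivative, made and kept by continuous passage in tamoxifen, so the cells without added tamoxifen in these experiments also had a history of exposure. The compound VX-702 inhibits the p38α MAP kinase, and the labels class it as a drug aimed at NLK.

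p53 is a transcription factor that binds pairs of a decamer element near its target genes and raises their transcription after DNA damage and other stresses. Its targets halt the cell cycle, repair DNA, sensitise cells to death receptors, alter metabolism and, through the ubiquitin ligase MDM2, remove p53 itself. Many of these genes are also transcribed without p53, from other factors.

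The reagents that separate the groups and the promoter sequences that carry a p53 site are shown first. Both siRNAs are 19-base sense strands against NLK on chromosome 17, given in the labels as numbers 1 and 2, which are taken here as type 1 and type 2 by their numbering alone.
NLK siRNA 1: GUCAGUAACAGAUCCAAGA
NLK siRNA 2: GAGCUGAAUUUGAAGACUA

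RefSeq promoters, the 250 bases before and 50 bases after an annotated start on GRCh38.p14, were found for 24 of the 29 members, 40 promoters in all. They were searched on both strands for the p53 consensus decamer, and for a full site of 2 such decamers up to 13 bases apart with at most 2 mismatches in all and the central C and G of each decamer kept. At least 1 perfect decamer stood in 6 of the 40 member promoters (15%), against 6.63% of all 35116 promoters of the table. A full site stood in 6 of the 40 (15%), against 2.93% of all promoters. Those 6 belonged to 5 members, because 2 overlapping MDM2 promoters hold the same site, which is counted in each. The members were listed as p53 targets, so these shares are not independent evidence that p53 acts on them. A match is a description of the letters in this window and does not show binding. One promoter of each of the 5 is printed because the levels of these genes are compared between the lines further on, with the full site in capitals.
AEN, chr15:88621090-88621389, plus strand: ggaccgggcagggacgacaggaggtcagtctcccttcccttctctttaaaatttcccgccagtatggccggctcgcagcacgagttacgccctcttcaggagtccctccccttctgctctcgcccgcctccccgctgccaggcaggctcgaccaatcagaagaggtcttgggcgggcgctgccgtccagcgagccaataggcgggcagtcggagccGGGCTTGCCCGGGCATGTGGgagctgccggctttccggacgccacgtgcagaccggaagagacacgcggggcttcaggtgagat
DDB2, chr11:47214724-47215023, plus strand: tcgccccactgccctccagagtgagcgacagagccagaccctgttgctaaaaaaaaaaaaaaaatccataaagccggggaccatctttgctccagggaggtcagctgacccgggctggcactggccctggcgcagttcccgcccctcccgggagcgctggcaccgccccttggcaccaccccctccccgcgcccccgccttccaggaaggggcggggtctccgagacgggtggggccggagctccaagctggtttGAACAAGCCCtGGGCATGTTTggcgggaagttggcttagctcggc
FAS, chr10:88991181-88991480, plus strand: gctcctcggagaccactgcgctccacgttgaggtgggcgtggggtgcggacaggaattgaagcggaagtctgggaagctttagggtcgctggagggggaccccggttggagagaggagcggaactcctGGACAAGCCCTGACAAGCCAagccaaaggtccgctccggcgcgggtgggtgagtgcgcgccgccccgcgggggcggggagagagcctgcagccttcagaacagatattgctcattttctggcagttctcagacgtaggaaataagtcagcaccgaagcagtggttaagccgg
FDXR, chr17:74872945-74873244, minus strand: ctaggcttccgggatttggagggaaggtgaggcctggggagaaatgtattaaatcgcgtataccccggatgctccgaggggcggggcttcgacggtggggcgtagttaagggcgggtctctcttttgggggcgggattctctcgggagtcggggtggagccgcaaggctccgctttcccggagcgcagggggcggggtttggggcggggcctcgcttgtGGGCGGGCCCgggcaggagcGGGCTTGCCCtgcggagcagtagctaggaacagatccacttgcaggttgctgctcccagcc
MDM2, chr12:68808767-68809066, plus strand: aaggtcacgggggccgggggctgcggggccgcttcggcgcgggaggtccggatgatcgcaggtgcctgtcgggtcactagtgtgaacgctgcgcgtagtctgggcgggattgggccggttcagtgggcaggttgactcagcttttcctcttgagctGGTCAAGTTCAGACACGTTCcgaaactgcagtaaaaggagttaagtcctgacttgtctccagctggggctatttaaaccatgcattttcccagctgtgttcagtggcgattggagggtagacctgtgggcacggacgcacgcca
The DDB2 site begins 5 bases after the start, has 0 mismatches and a spacer of 1 base. The AEN site begins 34 bases before the start and the FDXR site 31 bases before it, its 2 decamers standing 10 bases apart. The FAS site begins 122 bases before the start, and the MDM2 site, in the promoter printed, 94 bases before it.

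Total counts per library lay between 14637083 and 26915863, and 3 counts, the floor below which a level is not told from 0, stood for 0.110 to 0.193 CPM (counts scaled to the library total with TMM factors). NLK had 8.51 CPM with type 1, 5.41 with type 2, 34.5 with tamoxifen and 29.99 with control siRNA in BT483. In T47D-TamR NLK had 10.3 CPM with type 1, 12.2 with type 2, 29.5 with tamoxifen and 29.2 with control siRNA, and in the drug arm 28.1 CPM with VX-702, 33.1 with tamoxifen and 32.7 with DMSO. NLK fell in the test over both lines (log2 fold change −1.75, SE 0.21, edgeR adjusted p = 0.0308) and in BT483 (−2.13, adjusted p = 0.0198), while in T47D-TamR the change of −1.38 had an adjusted p of 0.333. All 8 luminal epithelial markers were detected in every library, with a summed level of 13752 to 15643 CPM in BT483 and 5703 to 8280 CPM in T47D-TamR. The 8 fibroblast markers summed to 11.8 to 14.5 CPM in BT483 and 51.9 to 76.0 CPM in T47D-TamR, with 0 to 4 of them at 0 counts in a library. COL1A1 made up most of that sum, and other fibroblast markers moved with the T47D-TamR groups. VIM there had 2.29 CPM with type 1, 2.30 with type 2, 0.194 with tamoxifen and 1.59 with control siRNA, and 0 CPM with VX-702, 0.0766 with tamoxifen and 0.120 with DMSO in the drug arm. COL1A2 had 6.56 CPM with type 1, 4.16 with type 2, 0.232 with tamoxifen and 2.18 with control siRNA in the T47D-TamR siRNA arm, and 0 CPM with VX-702, 0.345 with tamoxifen and 0.360 with DMSO in the drug arm. The 8 leukocyte and endothelial markers summed to 1.60 to 3.10 CPM in BT483 and 0.230 to 0.832 CPM in T47D-TamR, with 2 to 6 of them at 0. The 15 interferon-stimulated genes moved with the siRNA groups: their sum was 1228 CPM with type 1, 4479 with type 2, 524 with tamoxifen and 743 with control siRNA in BT483. The same sum in T47D-TamR was 3117, 5159, 2496 and 2579 CPM for type 1, type 2, tamoxifen and control siRNA, and 924, 764 and 754 CPM for VX-702, tamoxifen and DMSO. The part of these markers and of the interferon-stimulated genes in the differences described next was not tested. The libraries are of bulk RNA, in which fewer cells of a type and less RNA per cell cannot be told apart.

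The members were expressed over a wide range in both lines, and the lines ranked them differently. On a scale per length (TPM, mean ± SD over libraries), PHLDA3 was the highest member in BT483 at 142 ± 26.9, followed by GDF15 at 113 ± 40.2, TRIAP1 at 80.0 ± 9.26 and TP53INP1 at 79.6 ± 10.98 (n = 4). No neighbours in that order differed beyond their spread, and the SD spans the different treatments of the line. In T47D-TamR, TP53I3 stood highest at 542 ± 23.0 TPM, followed by CYFIP2 at 100.2 ± 14.7, TRIAP1 at 99.0 ± 18.6 and PLK2 at 91.1 ± 12.6 (n = 7). The last 3 of these lay within each other's SD. At least 10 TPM was reached by 21 members in BT483 and 20 in T47D-TamR. No member was under 1 TPM in BT483 and 2, TIGAR and SPATA18, were in T47D-TamR. FAS, at 1.02 ± 0.180 TPM, was the lowest in BT483.

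**Figure D1:**
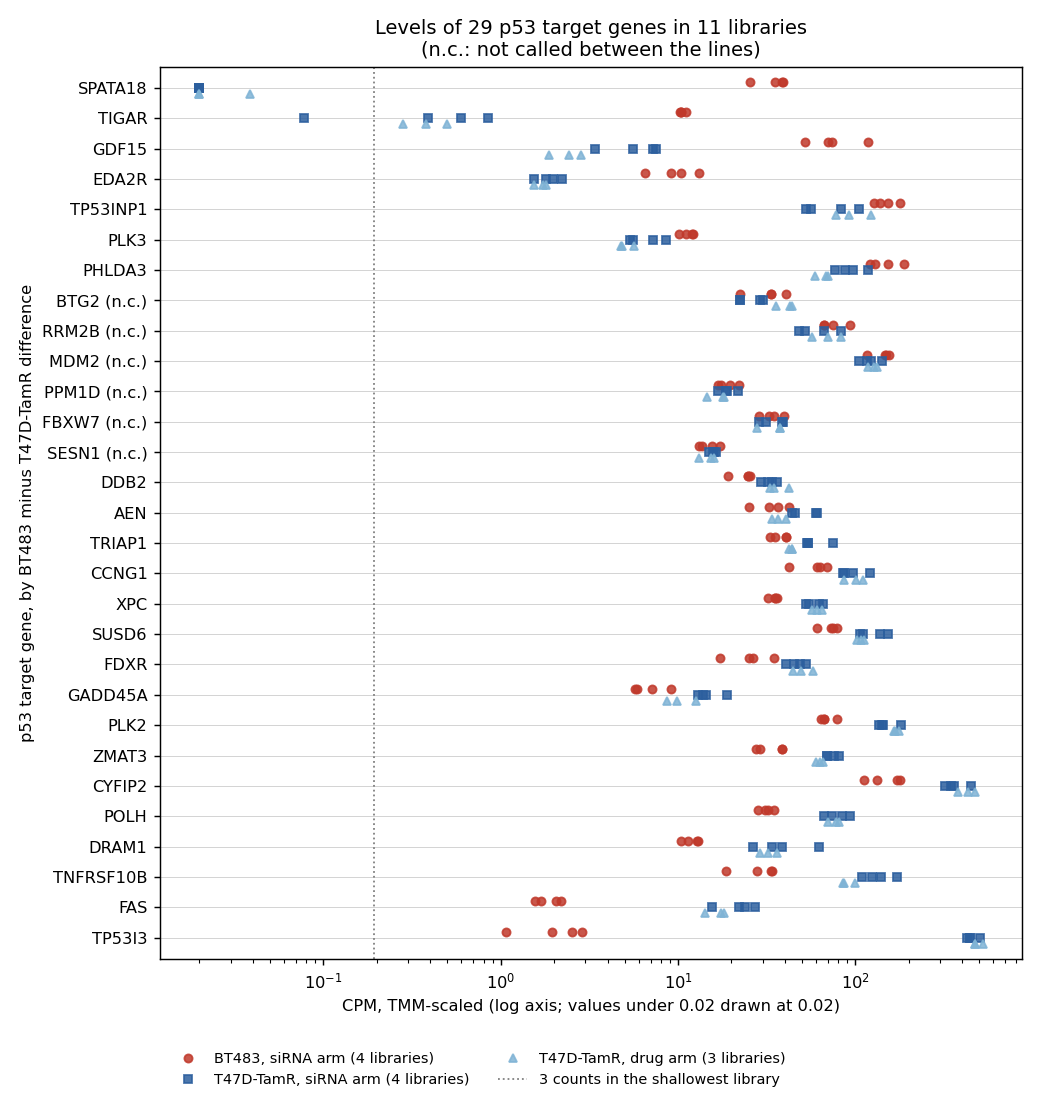
Levels of the 29 genes in the 11 libraries, in CPM on a log axis, ordered by the difference between the lines, with a point for each library and levels under 0.02 CPM drawn at 0.02; n.c. marks the 6 genes not called between the lines. TP53I3, in the bottom row, lies between 1.08 and 2.87 CPM in BT483 and between 429 and 526 CPM in T47D-TamR, while in the top rows SPATA18, TIGAR and GDF15 lie further to the right in BT483.

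Between the lines, 23 of the 29 members differed in the edgeR quasi-likelihood test over the 4 matched pairs of siRNA libraries (adjusted p under 0.05), 7 higher and 16 lower in BT483 than in T47D-TamR. The 4 conditions act as the replicates, so these p-values measure spread over treatments, not between cultures given the same treatment. The members called are 79.3% of the 29, against 70.7% of the 21990 genes tested, of which 35.6% were higher and 35.1% lower. An unadjusted p under 0.05 was found for 72.9% of genes and for 23 members. In 23 members the 4 BT483 libraries did not overlap with the 4 T47D-TamR siRNA libraries (7 higher, 16 lower), against 65% of genes (32.5% in each direction). Without SPATA18 and TIGAR, described next, which had no or few reads in T47D-TamR, 21 of 27 members were called (5 higher, 16 lower; 77.8%). The share of members called in either direction is near that of all genes. The split by direction was less even for members. Of the 29, 16 were lower in BT483, against 35.1% of genes, and 7 higher, against 35.6%. That split was not tested. By role, 8 of the 11 genes of cell death and survival were lower in BT483 and the other 3 higher, 3 of 4 DNA repair genes were lower, and none of the 3 feedback genes was called. The role groups were assigned here and are small, and their splits were not tested. All log2 differences between lines that follow are BT483 minus T47D-TamR.

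GDF15, the 1 secreted factor, and 3 of the 5 metabolic genes were among those that differed most. GDF15, a secreted stress-induced member of the TGF-β family, had 73.8 CPM with type 1, 117 with type 2, 52.2 with tamoxifen and 69.99 with control siRNA in BT483. T47D-TamR siRNA libraries held GDF15 at 7.20 CPM with type 1, 7.46 with type 2, 5.58 with tamoxifen and 3.41 with control siRNA, and the drug arm at 2.85 CPM with VX-702, 2.41 with tamoxifen and 1.88 with DMSO. Every BT483 library lay above every T47D-TamR library (log2 difference 3.72, SE 0.19, adjusted p = 2.18e-08). TP53I3, an NADPH-dependent quinone oxidoreductase, ran the other way, with 2.52 CPM with type 1, 1.94 with type 2, 2.87 with tamoxifen and 1.08 with control siRNA in BT483. For TP53I3 the T47D-TamR siRNA arm had 506 CPM with type 1, 429 with type 2, 444 with tamoxifen and 443 with control siRNA, and the drug arm 526 CPM with VX-702, 473 with tamoxifen and 470.1 with DMSO. The counts behind the BT483 levels were 39 with type 1, 53 with type 2, 77 with tamoxifen and 19 with control siRNA. All T47D-TamR libraries stood far above all BT483 libraries (log2 difference −7.77, SE 0.23, adjusted p = 1.75e-09).

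SPATA18, a protein of mitochondrial quality control, was detected in every BT483 library, with 38.5 CPM with type 1, 39.3 with type 2, 25.5 with tamoxifen and 35.02 with control siRNA. It had 0 counts in 6 of the 7 T47D-TamR libraries and 1 count in the library with DMSO plus tamoxifen. Against a floor of 3 counts per library, the BT483 mean of 34.6 ± 6.35 CPM (SD, n = 4) was at least 284.6-fold higher. SPATA18 passed the filter on low counts through BT483 alone. TIGAR, a bisphosphatase that restrains glycolysis, had 10.3 CPM with type 1, 10.4 with type 2, 10.4 with tamoxifen and 11.1 with control siRNA in BT483. In T47D-TamR siRNA libraries TIGAR had 0.845 CPM with type 1, 0.390 with type 2, 0.0774 with tamoxifen and 0.594 with control siRNA, and in the drug arm 0.377 CPM with VX-702, 0.498 with tamoxifen and 0.280 with DMSO. Its T47D-TamR levels rested on 2 to 21 counts per library, the 2 counts with tamoxifen and control siRNA being under the floor, while BT483 stood above 10 CPM throughout (log2 difference 4.53, SE 0.38, adjusted p = 2.36e-06). On the GENCODE 29 annotation, 42.6% of the exon bases of TIGAR are shared with AC008012.1 on the same strand, so reads there cannot be assigned to 1 of them.

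FDXR, the mitochondrial reductase that feeds electrons to ferredoxins, had 25.1 CPM with type 1, 34.9 with type 2, 17.2 with tamoxifen and 26.5 with control siRNA in BT483. For FDXR in T47D-TamR the values were 52.6 CPM with type 1, 48.7 with type 2, 45.1 with tamoxifen and 40.6 with control siRNA, and 57.8 CPM with VX-702, 49.7 with tamoxifen and 44.4 with DMSO in the drug arm. FDXR was lower in all BT483 libraries (log2 difference −0.89, SE 0.16, adjusted p = 0.000348). SESN1, a sestrin that restrains mTORC1, lay between 13.1 and 17.3 CPM in BT483 and between 13.2 and 16.3 CPM in T47D-TamR, and was not called (−0.091, adjusted p = 0.608).

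Among cell-death genes the surface receptors differed most. FAS, the receptor of Fas ligand, had 2.19 CPM with type 1, 2.05 with type 2, 1.57 with tamoxifen and 1.70 with control siRNA in BT483. The T47D-TamR siRNA libraries held FAS at 21.97 CPM with type 1, 23.9 with type 2, 15.5 with tamoxifen and 27.2 with control siRNA, and the drug arm at 18.1 CPM with VX-702, 14.3 with tamoxifen and 17.4 with DMSO. No T47D-TamR library came near the BT483 range (log2 difference −3.54, SE 0.19, adjusted p = 2.67e-08); 8.93% of FAS exon bases lie antisense to ACTA2, and whether the counting used strand is not given in the sources used here. TNFRSF10B, the TRAIL receptor DR5, had 33.9 CPM with type 1, 33.6 with type 2, 18.6 with tamoxifen and 27.9 with control siRNA in BT483. For TNFRSF10B, T47D-TamR siRNA libraries had 139 CPM with type 1, 172 with type 2, 124 with tamoxifen and 109 with control siRNA, and drug-arm libraries 99.6 CPM with VX-702, 86.4 with tamoxifen and 85.02 with DMSO. TNFRSF10B was thus lower in BT483 than in any T47D-TamR library (log2 difference −2.27, SE 0.14, adjusted p = 6.23e-08). EDA2R, the receptor of ectodysplasin A2, was higher in BT483, with 13.1 CPM with type 1, 9.10 with type 2, 6.49 with tamoxifen and 10.4 with control siRNA. EDA2R in T47D-TamR stood at 1.81 CPM with type 1, 2.21 with type 2, 1.97 with tamoxifen and 1.55 with control siRNA, and at 1.80 CPM with VX-702, 1.53 with tamoxifen and 1.72 with DMSO in the drug arm, all under the lowest BT483 library (log2 difference 2.33, SE 0.24, adjusted p = 3.82e-06).

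Of the other death and survival genes, TP53INP1 and PHLDA3 were higher in BT483 and 6 were lower. TP53INP1, a stress-induced protein of apoptosis and autophagy, had 153 CPM with type 1, 137 with type 2, 179.5 with tamoxifen and 127 with control siRNA in BT483. Its levels in T47D-TamR were 56.3 CPM with type 1, 52.8 with type 2, 105 with tamoxifen and 82.9 with control siRNA, and 77.4 CPM with VX-702, 122 with tamoxifen and 91.9 with DMSO in the drug arm, and the highest of these lay under the lowest BT483 value (log2 difference 1.05, SE 0.16, adjusted p = 0.000149). PHLDA3, a pleckstrin-homology protein that inhibits AKT, had 129 CPM with type 1, 187 with type 2, 153 with tamoxifen and 122 with control siRNA in BT483. For PHLDA3 the T47D-TamR siRNA arm gave 118 CPM with type 1, 87.1 with type 2, 97.1 with tamoxifen and 76.6 with control siRNA, and the drug arm 70.3 CPM with VX-702, 67.9 with tamoxifen and 59.3 with DMSO. The gap between the groups was narrow, 121.6 CPM in the lowest BT483 library against 118 CPM in T47D-TamR with type 1 (log2 difference 0.64, SE 0.14, adjusted p = 0.00194), and 19.1% of PHLDA3 exon bases are shared with AC096677.2 on the same strand.

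DRAM1, a lysosomal membrane protein of autophagy, had 12.8 CPM with type 1, 13.01 with type 2, 10.4 with tamoxifen and 11.3 with control siRNA in BT483. In T47D-TamR, DRAM1 had 26.3 CPM with type 1, 62.03 with type 2, 38.5 with tamoxifen and 33.8 with control siRNA, with 35.9 CPM with VX-702, 31.95 with tamoxifen and 29.05 with DMSO in the drug arm. DRAM1 was lower in every BT483 library (log2 difference −1.70, SE 0.19, adjusted p = 7.66e-06). CYFIP2, a component of the WAVE actin-regulating complex, had 172 CPM with type 1, 111 with type 2, 179 with tamoxifen and 133 with control siRNA in BT483. T47D-TamR held CYFIP2 at 320.1 CPM with type 1, 361 with type 2, 449 with tamoxifen and 344 with control siRNA, and at 469.5 CPM with VX-702, 434 with tamoxifen and 378 with DMSO in the drug arm. CYFIP2 was also lower in BT483 throughout (log2 difference −1.33, SE 0.13, adjusted p = 3.48e-06). ZMAT3, a zinc-finger protein that binds RNA, had 38.6 CPM with type 1, 38.6 with type 2, 27.6 with tamoxifen and 29.1 with control siRNA in BT483. ZMAT3 in T47D-TamR had 75.6 CPM with type 1, 80.7 with type 2, 68.9 with tamoxifen and 69.6 with control siRNA, and 60.1 CPM with VX-702, 63.3 with tamoxifen and 65.3 with DMSO in the drug arm. The lines did not overlap (log2 difference −1.15, SE 0.12, adjusted p = 4.52e-06).

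SUSD6, a membrane protein with a sushi domain, had 73.3 CPM with type 1, 78.4 with type 2, 75.1 with tamoxifen and 61.1 with control siRNA in BT483. For SUSD6, T47D-TamR gave 109.9 CPM with type 1, 153 with type 2, 137 with tamoxifen and 107 with control siRNA, and 107 CPM with VX-702, 111 with tamoxifen and 102 with DMSO in the drug arm. SUSD6 was lower in BT483 (log2 difference −0.81, SE 0.11, adjusted p = 4.28e-05). TRIAP1, a small mitochondrial protein that limits apoptosis, had 40.7 CPM with type 1, 40.6 with type 2, 35.4 with tamoxifen and 33.1 with control siRNA in BT483. TRIAP1 stood in T47D-TamR at 74.6 CPM with type 1, 53.5 with type 2, 54.3 with tamoxifen and 54.4 with control siRNA, and at 43.9 CPM with VX-702, 43.9 with tamoxifen and 42.5 with DMSO in the drug arm. Its difference between the siRNA arms was small but past the threshold (log2 difference −0.65, SE 0.12, adjusted p = 0.000541). AEN, the apoptosis-enhancing nuclease whose promoter is printed above, had 32.5 CPM with type 1, 42.3 with type 2, 25.1 with tamoxifen and 36.4 with control siRNA in BT483. AEN in T47D-TamR had 60.9 CPM with type 1, 60.3 with type 2, 45.5 with tamoxifen and 43.8 with control siRNA, and 40.4 CPM with VX-702, 36.6 with tamoxifen and 34.01 with DMSO in the drug arm, where its levels reached into the BT483 range, while the siRNA arms did not overlap (log2 difference −0.63, SE 0.13, adjusted p = 0.00107).

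Of the cell-cycle members, PLK3 was higher in BT483, PLK2, CCNG1 and GADD45A were lower, and BTG2 was not called. PLK2 and PLK3 are polo-like kinases. PLK2 had 66.4 CPM with type 1, 63.7 with type 2, 78.6 with tamoxifen and 66.7 with control siRNA in BT483. In the T47D-TamR siRNA arm PLK2 had 142 CPM with type 1, 180.1 with type 2, 136 with tamoxifen and 140.4 with control siRNA, and in the drug arm 177 CPM with VX-702, 165 with tamoxifen and 166 with DMSO. PLK2 was lower in BT483 throughout (log2 difference −1.12, SE 0.13, adjusted p = 8.93e-06). PLK3 had 11.996 CPM with type 1, 12.1 with type 2, 10.1 with tamoxifen and 11.1 with control siRNA in BT483. In T47D-TamR, PLK3 had 7.24 CPM with type 1, 8.55 with type 2, 5.34 with tamoxifen and 5.55 with control siRNA, and 5.61 CPM with VX-702, 4.75 with tamoxifen and 4.80 with DMSO in the drug arm. PLK3 was the 1 cell-cycle member higher in BT483 (log2 difference 0.78, SE 0.17, adjusted p = 0.00125).

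CCNG1, the atypical cyclin G1, had 69.01 CPM with type 1, 63.3 with type 2, 42.2 with tamoxifen and 61.1 with control siRNA in BT483. CCNG1 had 96.7 CPM with type 1, 86.4 with type 2, 84.9 with tamoxifen and 121 with control siRNA in T47D-TamR, and 85.8 CPM with VX-702, 101 with tamoxifen and 109.7 with DMSO in its drug arm. No overlap was seen (log2 difference −0.73, SE 0.13, adjusted p = 0.000455). GADD45A, a stress sensor that binds cell-cycle and repair proteins, had 7.09 CPM with type 1, 9.14 with type 2, 5.74 with tamoxifen and 5.88 with control siRNA in BT483. GADD45A in T47D-TamR stood at 18.9 CPM with type 1, 13.8 with type 2, 14.3 with tamoxifen and 12.9 with control siRNA, and at 12.6 CPM with VX-702, 9.85 with tamoxifen and 8.64 with DMSO in the drug arm, whose DMSO library lay within the BT483 range. The siRNA arms did not overlap (log2 difference −1.11, SE 0.18, adjusted p = 0.000188). BTG2, an antiproliferative protein that promotes mRNA deadenylation, had 33.4 CPM with type 1, 40.4 with type 2, 22.3 with tamoxifen and 33.4 with control siRNA in BT483. BTG2 had 22.2 CPM with type 1, 28.8 with type 2, 30.2 with tamoxifen and 22.5 with control siRNA in T47D-TamR, and 42.6 CPM with VX-702, 43.7 with tamoxifen and 35.8 with DMSO in the drug arm. The lines overlapped, and BTG2 was not called (log2 difference 0.30, SE 0.17, adjusted p = 0.141).

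Of the 4 DNA repair genes, 3 were lower in BT483. POLH, the translesion polymerase eta, had 32.2 CPM with type 1, 30.9 with type 2, 28.1 with tamoxifen and 34.6 with control siRNA in BT483. POLH in T47D-TamR had 66.2 CPM with type 1, 93.7 with type 2, 84.3 with tamoxifen and 73.6 with control siRNA, and 80.998 CPM with VX-702, 78.1 with tamoxifen and 70.5 with DMSO in the drug arm, each above 66 CPM and so clear of BT483 (log2 difference −1.33, SE 0.13, adjusted p = 3.18e-06). XPC and DDB2 recognise damage in nucleotide excision repair. XPC had 35.4 CPM with type 1, 36.2 with type 2, 35.01 with tamoxifen and 32.1 with control siRNA in BT483. In T47D-TamR XPC had 52.7 CPM with type 1, 65.3 with type 2, 61.96 with tamoxifen and 54.7 with control siRNA, and 60.4 CPM with VX-702, 64.9 with tamoxifen and 57.1 with DMSO in the drug arm. XPC was lower in BT483 (log2 difference −0.76, SE 0.12, adjusted p = 0.000111), and 23.8% of its exon bases lie antisense to AC093495.1.

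DDB2 had 25.5 CPM with type 1, 24.7 with type 2, 19.1 with tamoxifen and 24.7 with control siRNA in BT483. In T47D-TamR DDB2 had 33.9 CPM with type 1, 29.4 with type 2, 36.2 with tamoxifen and 31.98 with control siRNA, and 42.1 CPM with VX-702, 34.5 with tamoxifen and 32.8 with DMSO in the drug arm. DDB2 was lower in BT483 in all 4 pairs (log2 difference −0.49, SE 0.14, adjusted p = 0.00904), but the call was lost without the BT483 tamoxifen library (log2 difference −0.32, adjusted p = 0.0709) or without the T47D-TamR tamoxifen library of the siRNA arm (−0.33, adjusted p = 0.0630). RRM2B, the p53-inducible subunit of ribonucleotide reductase, had 66.8 CPM with type 1, 93.1 with type 2, 66.3 with tamoxifen and 74.3 with control siRNA in BT483. RRM2B in T47D-TamR had 52.2 CPM with type 1, 66.1 with type 2, 48.2 with tamoxifen and 83.4 with control siRNA, and 56.7 CPM with VX-702, 70.2 with tamoxifen and 82.7 with DMSO in the drug arm. Those ranges overlapped, and RRM2B was not called (log2 difference 0.29, SE 0.14, adjusted p = 0.0822).

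The 3 feedback genes did not pass the test between lines. MDM2, the ubiquitin ligase of p53, had 155 CPM with type 1, 149 with type 2, 116 with tamoxifen and 147 with control siRNA in BT483. MDM2 had 104 CPM with type 1, 123 with type 2, 116 with tamoxifen and 142 with control siRNA in T47D-TamR, and 118 CPM with VX-702, 128 with tamoxifen and 132 with DMSO in the drug arm, so the lines overlapped (log2 difference 0.23, SE 0.12, adjusted p = 0.119). FBXW7, the substrate receptor of a ubiquitin ligase for cyclin E and MYC, had 39.8 CPM with type 1, 28.6 with type 2, 34.6 with tamoxifen and 32.6 with control siRNA in BT483. FBXW7 had 38.7 CPM with type 1, 31.3 with type 2, 28.7 with tamoxifen and 39.3 with control siRNA in T47D-TamR, and 27.8 CPM with VX-702, 37.4 with tamoxifen and 37.6 with DMSO in the drug arm. The FBXW7 levels of the lines overlapped (log2 difference −0.024, SE 0.13, adjusted p = 0.883). PPM1D, the phosphatase WIP1, lay between 16.8 and 22.2 CPM in BT483 and between 14.5 and 21.9 CPM in T47D-TamR (log2 difference −0.0042).

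MDM4, an inhibitor of p53, and the CDK inhibitor CDKN1A (p21), neither of them a member, also differed between the lines. MDM4 was higher in BT483, at 144 to 174 CPM against 81.3 to 89.5 CPM over the T47D-TamR libraries (log2 difference 0.88, SE 0.10, adjusted p = 1.14e-05). In BT483 the MDM4 values were 166 CPM with type 1, 144 with type 2, 174 with tamoxifen and 155 with control siRNA. T47D-TamR had 88.6 CPM with type 1, 82.3 with type 2, 89.5 with tamoxifen and 85.6 with control siRNA, and 81.3 CPM with VX-702, 84.02 with tamoxifen and 85.1 with DMSO in the drug arm. CDKN1A had 692 CPM with type 1, 628 with type 2, 478 with tamoxifen and 473 with control siRNA in BT483. CDKN1A had 91.1 CPM with type 1, 141 with type 2, 79.5 with tamoxifen and 67.3 with control siRNA in T47D-TamR, and 62.9 CPM with VX-702, 58.2 with tamoxifen and 52.8 with DMSO in the drug arm, and was higher in every BT483 library (log2 difference 2.62, SE 0.14, adjusted p = 1.9e-08).

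NLK knockdown left no member past the threshold, and most of the values over both lines were small and positive. Over both lines and both siRNAs, 0 of 29 members had an edgeR adjusted p under 0.05, against 0.00416% of 24023 genes tested (1 gene), and the smallest adjusted p was 0.88, of GDF15. DESeq2 and limma also called 0 members. An unadjusted p under 0.05 was found for 5 members, GDF15, TNFRSF10B, GADD45A, PHLDA3 and ZMAT3, all with positive values, against 5.54% of all genes. The median log2 fold change of the members was 0.18 with 23 of 29 above 0, beside a median of 0.024 and 53.4% above 0 over all genes tested. That median is the value of SPATA18, which had 0 counts in every T47D-TamR siRNA library and was read from BT483 alone. The median was 0.11 without the BT483 control siRNA library (20 of 29 above 0), 0.12 without BT483 type 1 (19 of 29) and 0.061 without the line and arm as a block (17 of 29). Pair by pair, 20 of 27 members measured lay above control siRNA with each siRNA in BT483 (median log2 difference 0.14 for type 1 and 0.18 for type 2). In T47D-TamR 16 of 26 did with type 2 (median 0.20) and 13 of 26 with type 1, where the median of 0.0018 was under the 0.069 of all genes. The fibroblast markers moved in the same test: 6 of 6 tested had positive values (median 0.69, 0 called). Per line, 6 of 6 were positive in T47D-TamR and 4 of 6 in BT483. COL1A2, COL3A1, POSTN and DCN had only 1 to 6 counts in the BT483 control siRNA and knockdown libraries. The part of the fibroblast markers was not tested.

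GDF15 had the highest value of the 29 (log2 fold change 0.74, SE 0.22, unadjusted p = 0.00459). In BT483 it stood at 73.8 CPM with type 1 and 117 CPM with type 2, against 69.99 CPM with control siRNA. The T47D-TamR levels were 7.20 CPM with type 1 and 7.46 CPM with type 2, against 3.41 CPM with control siRNA, from 179, 172 and 86 counts. All 4 knockdown libraries thus lay above their control, by little for type 1 in BT483. Without the filter on low counts GDF15 was called (adjusted p = 0.0143), as it was in T47D-TamR alone (0.0340). Under that setting the number of all genes called rose from 1 to 249 over both lines and from 1 to 108 in T47D-TamR. TNFRSF10B followed at 0.43 (SE 0.15), GADD45A at 0.43 (SE 0.19), PHLDA3 at 0.38 (SE 0.15), PLK3 at 0.32 (SE 0.18), FDXR at 0.31, DRAM1 at 0.31, AEN at 0.31 and ZMAT3 at 0.28 (SE 0.12). TNFRSF10B, GADD45A, PHLDA3, PLK3, ZMAT3 and SUSD6 were above their control in 4 of 4 pairs, and FDXR, DRAM1 and AEN in 3 of 4. Both pairs of a line share the same control siRNA library, so they are not independent. At the other end were TP53INP1 at −0.21 (SE 0.16), RRM2B at −0.17 (SE 0.17), MDM2 at −0.091, CCNG1 at −0.080 and FBXW7 at −0.029. TP53INP1 ran from −0.48 without the BT483 control siRNA library to −0.020 without that of T47D-TamR. By role, all 5 metabolic genes, 9 of 11 genes of cell death and survival, 4 of 5 cell-cycle genes and 3 of 4 repair genes had positive values, and 1 of 3 feedback genes did. The metabolic genes include SPATA18, read in BT483 alone, and TIGAR (0.080, SE 0.41), which was under its control in 3 of 4 pairs. CDKN1A was above its control in 4 of 4 pairs, with 692 CPM for type 1 and 628 CPM for type 2 against 473 CPM for control siRNA in BT483, and with 91.1 CPM for type 1 and 141 CPM for type 2 against 67.3 CPM for control siRNA in T47D-TamR. The CDKN1A log2 fold change of 0.63 (SE 0.15) had an unadjusted p of 0.00101 and an adjusted p of 0.880. Without the filter on low counts CDKN1A was called (adjusted p = 0.00184), as 1 of those 249 genes. MDM4 (−0.023) was not called.

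**Figure D2:**
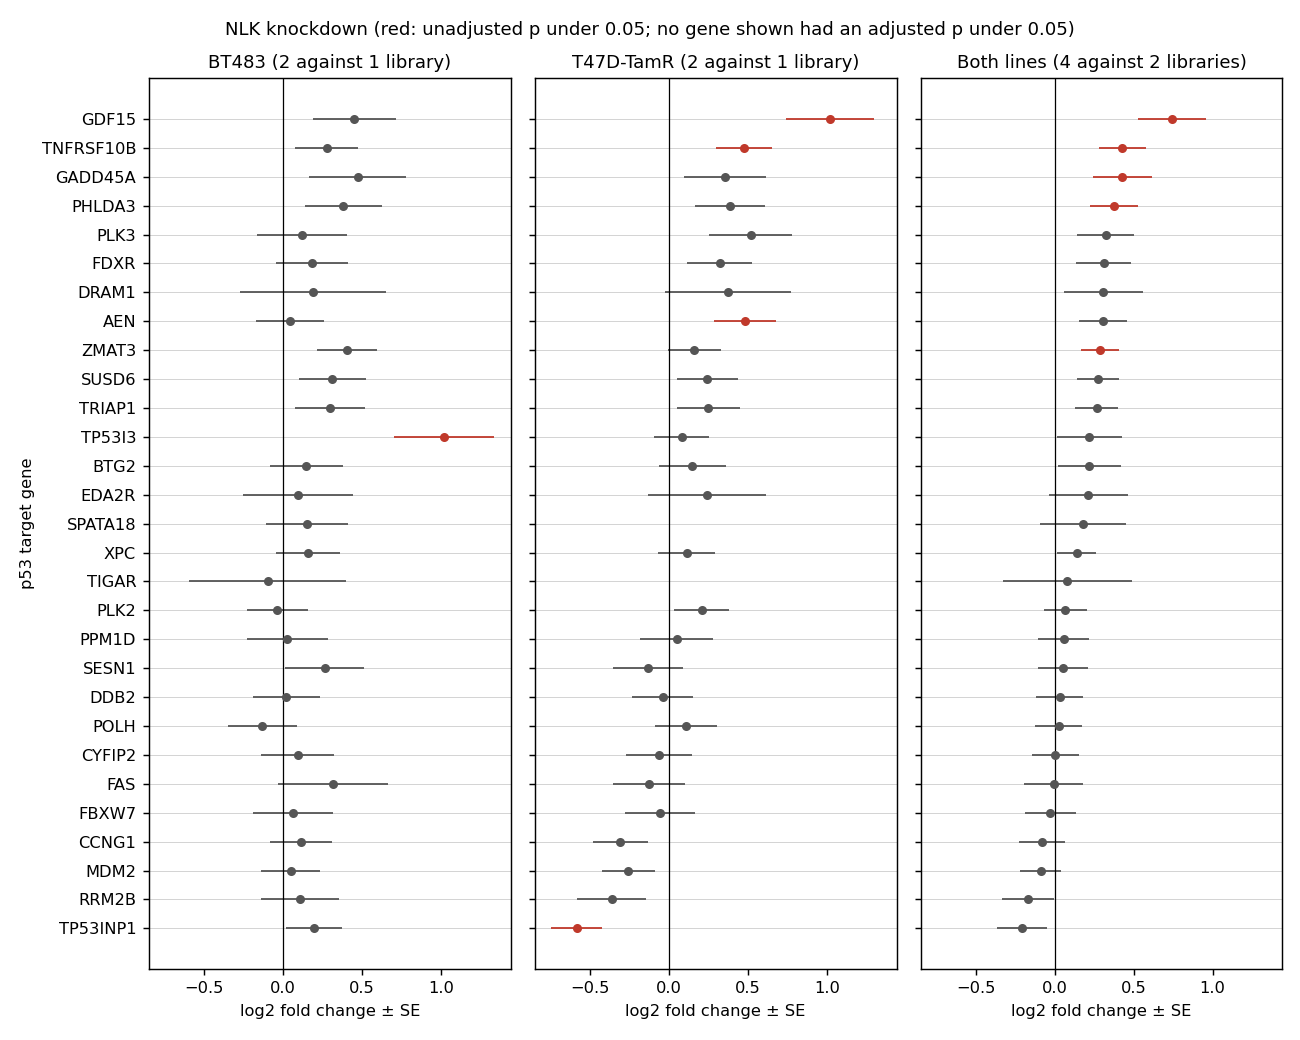
Log2 fold change with NLK knockdown for each of the 29 genes with its standard error, in BT483, in T47D-TamR and over both lines, ordered by the value over both lines; none passed an adjusted p of 0.05, red marks an unadjusted p under 0.05, and SPATA18 and TIGAR are not drawn in T47D-TamR. GDF15 lies furthest to the right over both lines at 0.74, and TP53INP1 lies on opposite sides of 0 in BT483 and T47D-TamR.

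Within BT483, 0 of 29 members were called by edgeR, against 0.00416% of genes, and 1 member had an unadjusted p under 0.05, against 3.39% of genes. DESeq2 and limma called 0 as well. The median of the members was 0.15, with 26 of 29 above 0, beside 0.0046 and 50.8% over all genes. That 1 member was TP53I3 (log2 fold change 1.02, SE 0.32, unadjusted p = 0.00620, adjusted p = 0.952), which had 2.52 CPM with type 1 and 1.94 CPM with type 2 against 1.08 CPM with control siRNA. These are 39 counts with type 1 and 53 with type 2 against 19 with control siRNA, so the depth limits this value. GADD45A (0.47) and GDF15 (0.45) came next, and POLH (−0.13), TIGAR (−0.099) and PLK2 (−0.037) were lowest. Without type 2, GADD45A stood at 0.27 and GDF15 at 0.076, and without type 1 GDF15 stood at 0.76.

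Within T47D-TamR, 0 of 29 members were called by edgeR, against 0.00416% of genes, and 4 members had an unadjusted p under 0.05, against 5.71% of genes. DESeq2 and limma called 0. The median was 0.16, with 20 of 29 above 0, beside 0.035 and 53.7% over all genes. These counts hold a fitted value for SPATA18, which has no reads in this comparison, and without it the median was 0.15 (19 of 28). With all 29, the median was 0.058 (16 of 29) without type 2 and 0.20 (18 of 29) without type 1. GDF15 had the highest value of the members with reads (1.02, SE 0.28, adjusted p = 0.768). TIGAR, at under 1 CPM, had a value of 0.65 (SE 0.72), and SPATA18, with 0 counts in both groups, has no fold change to be read. TNFRSF10B stood at 139 CPM with type 1 and 172 CPM with type 2 against 109 CPM with control siRNA (0.48, unadjusted p = 0.0175), and AEN at 60.9 CPM with type 1 and 60.3 CPM with type 2 against 43.8 CPM with control siRNA (0.48, unadjusted p = 0.0255). The lowest value was that of TP53INP1, with 56.3 CPM for type 1 and 52.8 CPM for type 2 against 82.9 CPM for control siRNA (−0.58, SE 0.16, unadjusted p = 0.00278, adjusted p = 0.768). RRM2B (−0.36) and CCNG1 (−0.31) followed, both under their control with each siRNA, but at 0.000354 and −0.066 in a fit without the control siRNA library. In that fit the tamoxifen library of the siRNA arm, less the tamoxifen effect of the drug arm, stands in for the control.

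The knockdown effect itself was compared between the lines. The edgeR test of the difference called 0 of 29 members and 0% of genes, and 2 members had an unadjusted p under 0.05, against 3.06% of genes; DESeq2 and limma called 0 members. They were TP53INP1, whose log2 fold change was 0.20 in BT483 and −0.58 in T47D-TamR (difference 0.78, SE 0.24, unadjusted p = 0.00625), and TP53I3 (difference 0.94, SE 0.36).

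**Figure D3:**
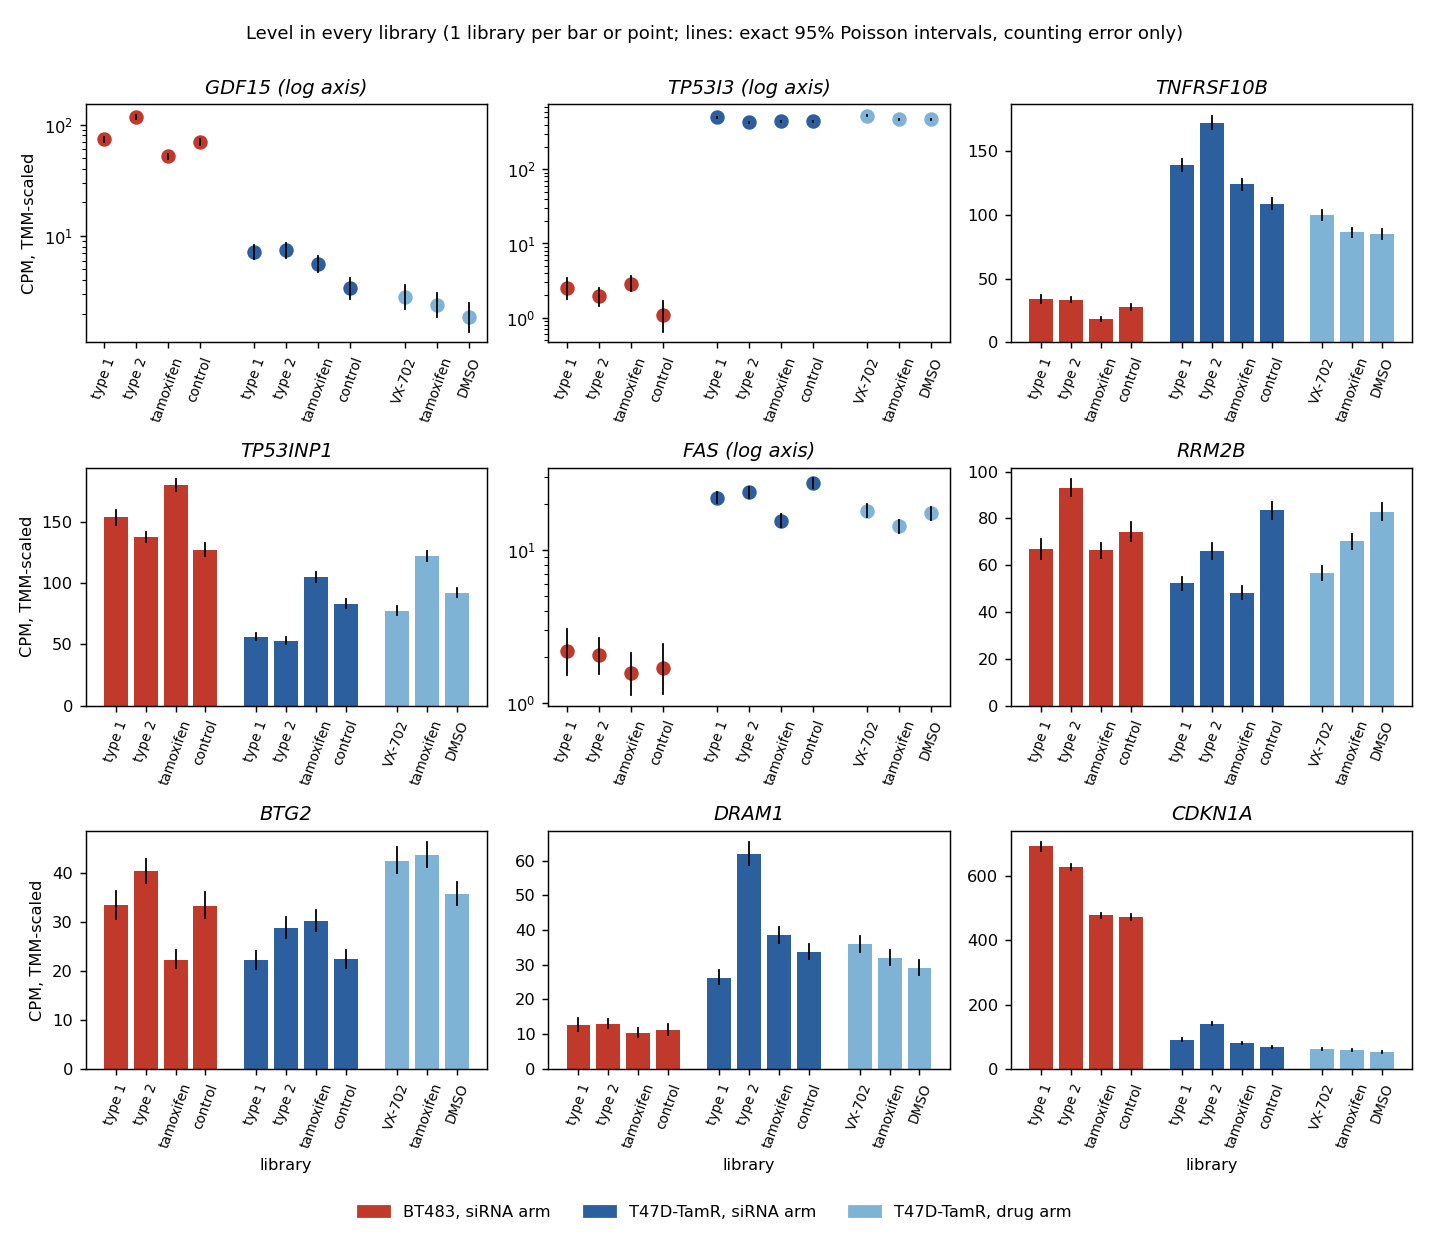
CPM of 9 genes in each of the 11 libraries with exact 95% Poisson intervals for counting error, with log axes for GDF15, TP53I3 and FAS. GDF15 lies above its control with both siRNAs in T47D-TamR (7.20 CPM with type 1 and 7.46 CPM with type 2, against 3.41 CPM with control siRNA), and TP53INP1 lies above its control with tamoxifen in all 3 pairs.

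The 2 siRNAs were then set against each other, type 2 minus type 1, with the lines as replicates. edgeR called 0 of 29 members, against 0.47% of genes; 4 members had an unadjusted p under 0.05, against 9.12% of genes, and DESeq2 and limma called 0. The median of the members was 0.047, with 18 of 29 above 0, and from 0.029 without T47D-TamR type 1 to 0.17 without BT483 type 1. DRAM1 had the highest value, with 62.03 CPM for type 2 against 26.3 CPM for type 1 in T47D-TamR and 13.01 CPM for type 2 against 12.8 CPM for type 1 in BT483, so the 2 siRNAs gave close levels in BT483 and unequal ones in T47D-TamR, and the value ran from 0.21 to 1.09 when 1 library was left out (log2 difference 0.66, SE 0.23, adjusted p = 0.343). RRM2B followed at 0.41 (SE 0.17), with 93.1 CPM for type 2 against 66.8 CPM for type 1 in BT483 and 66.1 CPM for type 2 against 52.2 CPM for type 1 in T47D-TamR. GDF15, at 0.39 (SE 0.24), had 117 CPM for type 2 against 73.8 CPM for type 1 in BT483, and the 2 siRNAs gave close levels in T47D-TamR. The lowest values were those of FBXW7 (−0.39, SE 0.16), TIGAR (−0.35) and TP53I3 (−0.28). The interferon-stimulated genes, given above, were higher with type 2 in both lines, and their part in these values was not tested.

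Tamoxifen was present in 3 libraries, each with its own control. Over the 3 pairs, edgeR called 0 of 29 members, against 0.0416% of genes (10 genes), and the smallest adjusted p was 0.606, of TP53INP1. DESeq2 and limma called 0 members. An unadjusted p under 0.05 was found for 5 members, against 6.62% of genes: TP53INP1 and CYFIP2 with positive values and FAS, RRM2B and CCNG1 with negative ones. The median was −0.046, with 13 of 29 above 0, beside 0.019 and 52.7% over all genes. It turned to 0.053 (17 of 29 above 0) without the BT483 tamoxifen library, and was −0.084 (12 of 29) without BT483 type 1 and −0.015 (13 of 29) without the BT483 control siRNA library.

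TP53INP1 had 179.5 CPM with tamoxifen against 127 CPM with control siRNA in BT483. In T47D-TamR it had 105 CPM with tamoxifen against 82.9 CPM with control siRNA, and in the drug arm 122 CPM with tamoxifen against 91.9 CPM with DMSO. All 3 pairs were positive (log2 fold change 0.41, SE 0.16, unadjusted p = 0.0210; 0.20 without the BT483 control siRNA library). CYFIP2 was likewise above its control in 3 of 3 pairs, with 179 CPM with tamoxifen against 133 CPM with control siRNA in BT483, 449 CPM with tamoxifen against 344 CPM with control siRNA in T47D-TamR, and 434 CPM with tamoxifen against 378 CPM with DMSO in the drug arm (0.34, SE 0.15). PHLDA3 was also above its control in 3 of 3 pairs, with 153 CPM with tamoxifen against 122 CPM with control siRNA in BT483, 97.1 CPM with tamoxifen against 76.6 CPM with control siRNA in T47D-TamR, and 67.9 CPM with tamoxifen against 59.3 CPM with DMSO in the drug arm (0.29, SE 0.15).

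FAS was under its control in 3 of 3 pairs, with 1.57 CPM with tamoxifen against 1.70 CPM with control siRNA in BT483, 15.5 CPM with tamoxifen against 27.2 CPM with control siRNA in T47D-TamR, and 14.3 CPM with tamoxifen against 17.4 CPM with DMSO in the drug arm (−0.46, SE 0.18, unadjusted p = 0.0218; −0.26 without the T47D-TamR control siRNA library). RRM2B was also under its control in 3 of 3 pairs, with 66.3 CPM with tamoxifen against 74.3 CPM with control siRNA in BT483, 48.2 CPM with tamoxifen against 83.4 CPM with control siRNA in T47D-TamR, and 70.2 CPM with tamoxifen against 82.7 CPM with DMSO in the drug arm (−0.41, SE 0.17; −0.22 without the T47D-TamR control siRNA library). SPATA18 had 25.5 CPM with tamoxifen against 35.02 CPM with control siRNA in BT483, the 1 line in which it was measured. Its value over all 3 pairs, −0.40 (SE 0.31), also takes in T47D-TamR libraries with 0 or 1 count. MDM2, SESN1, ZMAT3, PLK3 and CCNG1 were under their control in 3 of 3 pairs as well, and XPC, SUSD6 and, by little in T47D-TamR, TP53I3 above it. The 3 feedback genes all had negative values, from −0.23 for MDM2 to −0.069 for PPM1D.

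**Figure D4:**
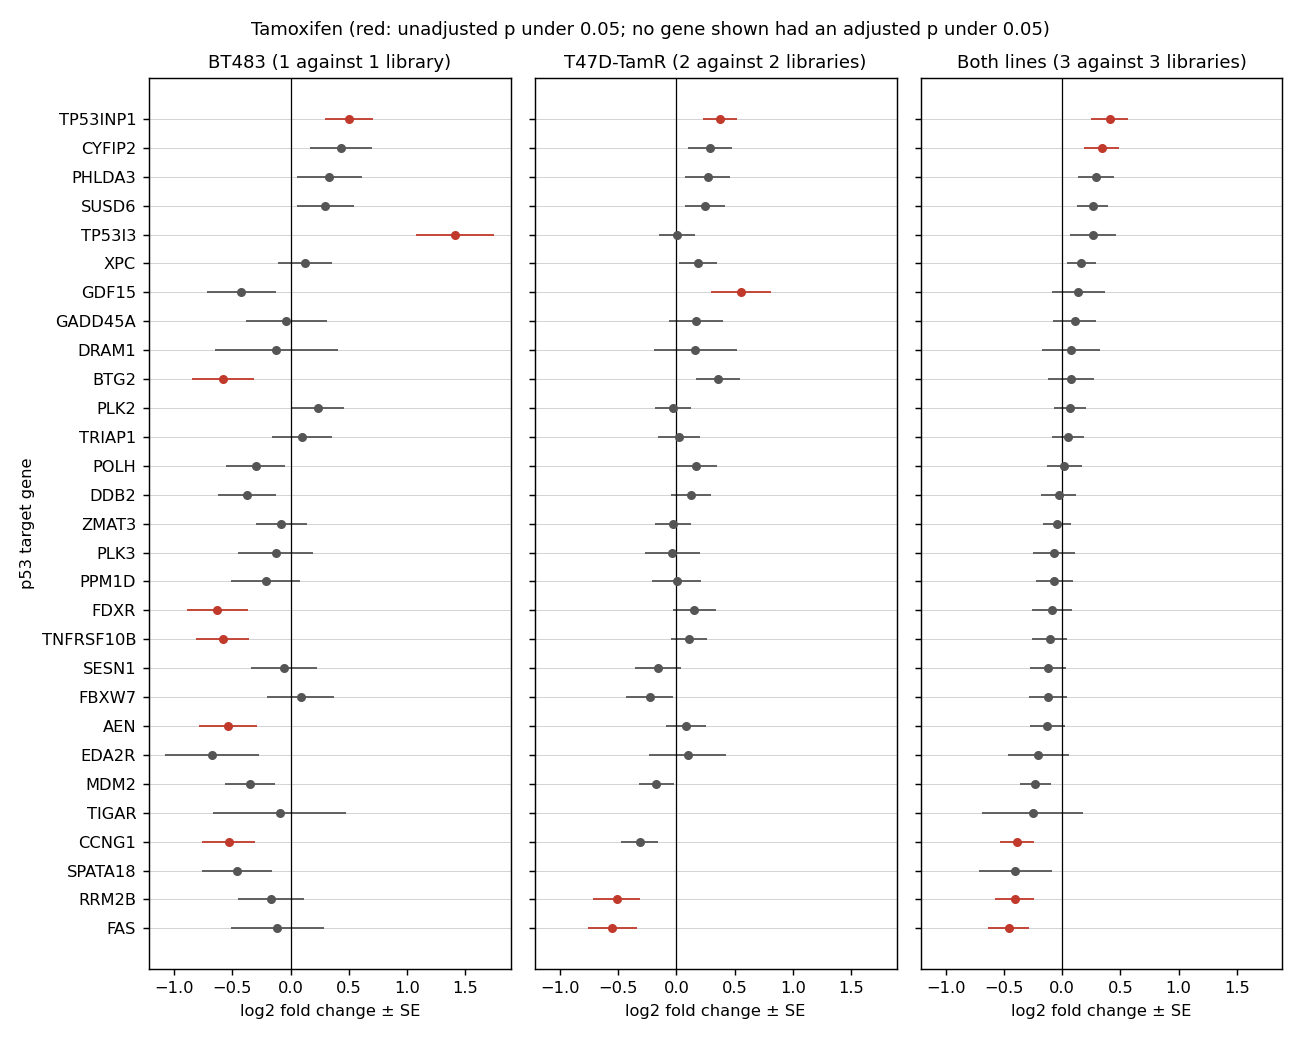
Log2 fold change with tamoxifen for each of the 29 genes with its standard error, in BT483 (1 pair), in T47D-TamR (2 pairs) and over all 3 pairs, ordered by the value over all pairs; none passed an adjusted p of 0.05, red marks an unadjusted p under 0.05, and SPATA18 and TIGAR are not drawn in T47D-TamR. TP53I3 in BT483 lies furthest to the right among genes with reads in every library at 1.41, and FAS and RRM2B lie to the left in T47D-TamR.

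In BT483, tamoxifen against control siRNA rested on 1 pair, whose spread is taken from the other groups. edgeR called 0 of 29 members, against 1.49% of genes, and 7 members had an unadjusted p under 0.05, against 8.67% of genes. DESeq2 called 1 member and limma 0. The median was −0.12, with 9 of 29 above 0 (49% of all genes were above 0). TP53I3 had the smallest p of the members, with 2.87 CPM with tamoxifen against 1.08 CPM with control siRNA, or 77 counts with tamoxifen against 19 with control siRNA (1.41, SE 0.34, adjusted p = 0.0536), and this is the member that DESeq2 called (adjusted p = 0.0482). edgeR also called TP53I3 without the T47D-TamR type 1 library (adjusted p = 0.0309) or the T47D-TamR type 2 library (0.0308). The other 6 were TP53INP1 (0.50), FDXR (−0.63), TNFRSF10B (−0.58), BTG2 (−0.58), AEN (−0.54) and CCNG1 (−0.53), with adjusted p from 0.427 to 0.567.

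Over the 2 T47D-TamR pairs, edgeR called 0 of 29 members, against 0.221% of genes, and 4 members had an unadjusted p under 0.05, against 6.01% of genes; DESeq2 and limma called 0. The median was 0.096, with 19 of 29 above 0, beside 0.033 and 53.8% over all genes. Without SPATA18, which had 1 count in these 4 libraries together, it was 0.088 (18 of 28). Among the fibroblast markers 1 of 6 tested was above 0 in this test (median −2.14, 0 called, 3 with an unadjusted p under 0.05). The other 5, COL1A2, COL3A1, POSTN, DCN and VIM, had 55, 31, 48, 16 and 40 counts with control siRNA. With control siRNA plus tamoxifen they had 6, 3, 0, 4 and 5 counts. In the drug arm they had 9, 5, 10, 5 and 3 counts with DMSO and 9, 1, 9, 3 and 2 with tamoxifen. The fall was thus read mostly in the siRNA arm. The part of these markers was not tested. With all 29 members, leaving out 1 library gave a median from 0.020 (without DMSO plus tamoxifen) to 0.096, and 0.056 or lower also without T47D-TamR control siRNA, T47D-TamR DMSO, BT483 control siRNA or BT483 type 1. The 4 members with an unadjusted p under 0.05 were FAS (−0.55, SE 0.21), RRM2B (−0.51, SE 0.20), TP53INP1 (0.37, SE 0.15) and GDF15 (0.56, SE 0.26), with adjusted p from 0.624 to 0.828. The FAS and RRM2B values came mostly from the pair with control siRNA.

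The tamoxifen effect was compared between the lines, BT483 minus T47D-TamR. edgeR called 0 of 29 members, against 0.691% of genes, and 5 members had an unadjusted p under 0.05, against 8.7% of genes; DESeq2 and limma called 0. TP53I3 had the smallest adjusted p (1.41, SE 0.37, adjusted p = 0.139). The other 4 were negative: GDF15 (−0.98), BTG2 (−0.94), FDXR (−0.78) and TNFRSF10B (−0.69).

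VX-702 was set against DMSO in T47D-TamR as 1 library against 1, which has no replicate check and no p-value. Of the 25 members that averaged at least 5 CPM in the pair, 0 were past 1.5-fold, against 5.31% of genes. The median log2 difference was 0.087, beside 0.078 over all genes. RRM2B was lowest, with 56.7 CPM with VX-702 against 82.7 CPM with DMSO (log2 difference −0.55, ratio 0.685, 0.639 to 0.734). FBXW7 had 27.8 CPM with VX-702 against 37.6 CPM with DMSO (−0.44, ratio 0.737, 0.666 to 0.815) and CCNG1 85.8 CPM with VX-702 against 109.7 CPM with DMSO (−0.36, ratio 0.782, 0.738 to 0.828). GADD45A was highest, with 12.6 CPM with VX-702 against 8.64 CPM with DMSO (0.54, ratio 1.46, 1.22 to 1.74). FDXR had 57.8 CPM with VX-702 against 44.4 CPM with DMSO (0.38) and DDB2 42.1 CPM with VX-702 against 32.8 CPM with DMSO (0.36). GDF15, TIGAR, SPATA18 and EDA2R were under 5 CPM and were left out. The range after each ratio is its exact 95% interval, for counting error alone.

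**Figure D5:**
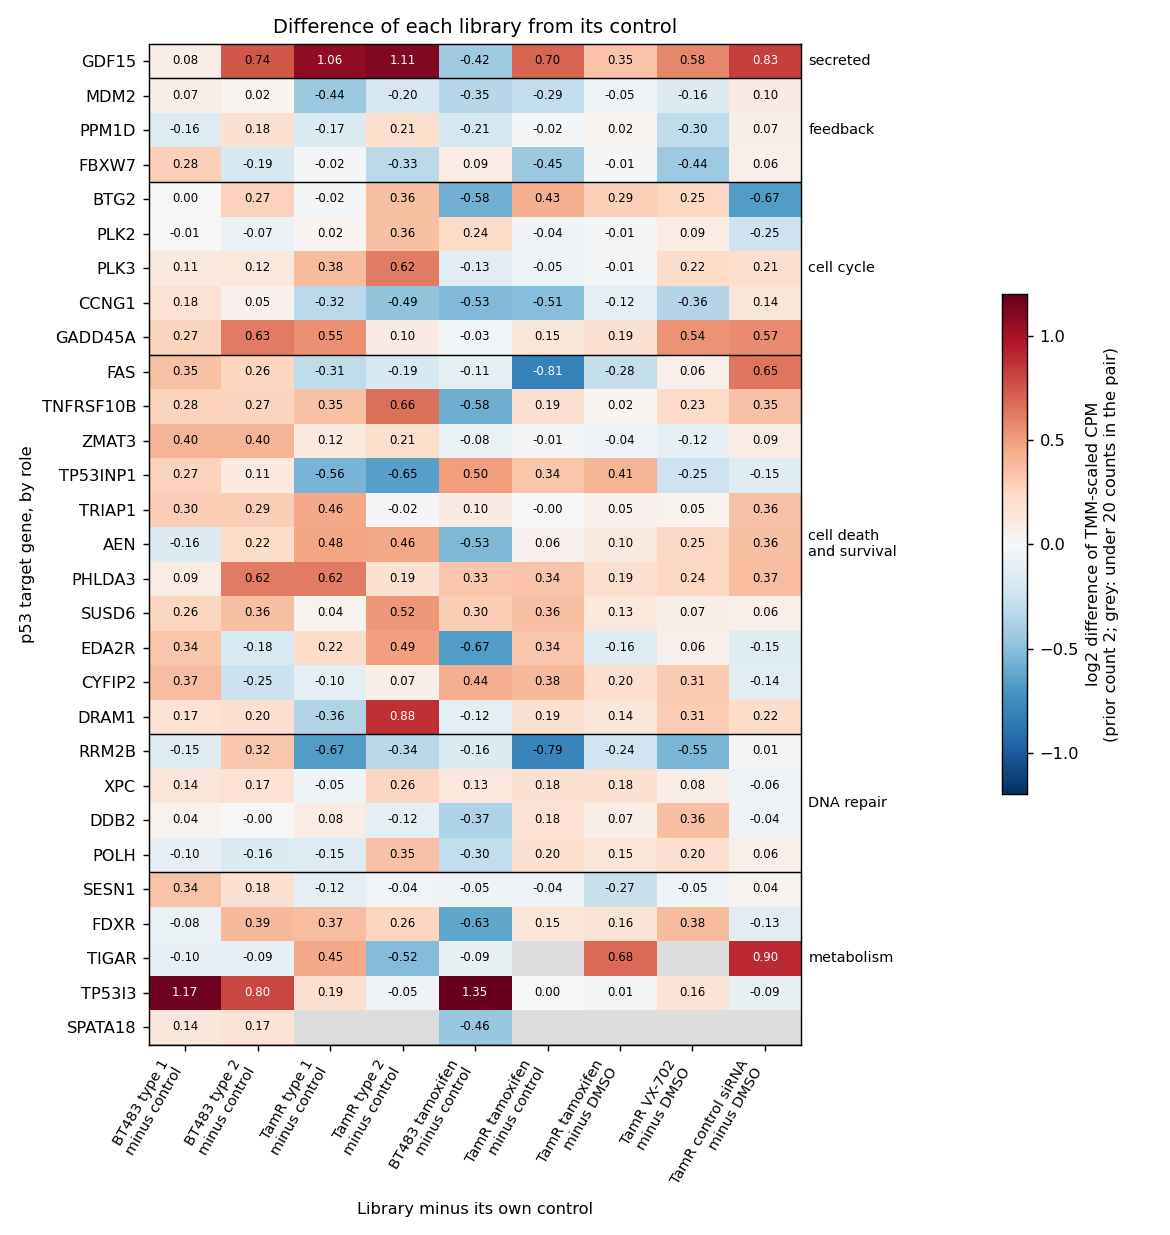
Log2 difference of each library from its own control for the 29 genes, by role, in 9 pairs that share controls (4 knockdown, 3 tamoxifen, VX-702, and control siRNA over DMSO); grey marks fewer than 20 counts in the pair. GDF15 is positive in both T47D-TamR knockdown columns, and RRM2B is negative in the 3 tamoxifen columns and with VX-702.

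Control siRNA was set against DMSO in T47D-TamR in the same way, a pair in which transfection, the non-targeting pool and possibly the time in culture differ together. Of 25 members measured, 2 were past 1.5-fold, against 4.05% of genes: FAS, with 27.2 CPM with control siRNA against 17.4 CPM with DMSO (log2 difference 0.65, ratio 1.57, 1.39 to 1.77), and BTG2, with 22.5 CPM with control siRNA against 35.8 CPM with DMSO (−0.67, ratio 0.628, 0.564 to 0.698). GADD45A (12.9 CPM with control siRNA against 8.64 CPM with DMSO, 0.57) and PHLDA3 (76.6 CPM with control siRNA against 59.3 CPM with DMSO, 0.37) were next on the positive side, and PLK2 (−0.25) and TP53INP1 (−0.15) on the negative side. The median was 0.064, beside 0.013 over all genes. In the same pair the summed interferon-stimulated genes stood at 2579 CPM with control siRNA against 754 CPM with DMSO, and VIM at 1.59 CPM with control siRNA against 0.120 CPM with DMSO. Their part was not tested.

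Other genes of the pathway were followed as 2 lists. Of 18 p53 family members and regulators, 0 were called with knockdown over both lines (median log2 fold change −0.0070, 9 of 18 above 0). PPP1R13L (0.18) and KAT5 (0.18) had the highest values and ATM (−0.38) and ATR (−0.40) the lowest. Of 34 other p53 targets tested of 35 listed, 0 were called (median 0.11, 20 of 34 above 0), with CDKN1A (0.63) and SESN2 (0.50) highest and TP53AIP1 (−0.62) and IKBIP (−0.49) lowest. Without the T47D-TamR control siRNA library the values were −0.18 for ATM, −0.24 for ATR, 0.098 for PPP1R13L, 0.10 for KAT5 and 0.19 for SESN2. Without that of BT483 they were −0.65 for ATM and −0.62 for ATR, and TP53AIP1 stood at −0.93 without T47D-TamR type 2. With tamoxifen over all pairs, 0 genes of either list were called.

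In BT483 with tamoxifen, 1 library against 1, edgeR called 3 of the 18 regulators, all lower, and 0 of the 34 other targets, against 1.49% of all genes. TP73, a p53 homologue, had 6.41 CPM with tamoxifen against 17.6 CPM with control siRNA (log2 fold change −1.46, SE 0.31, adjusted p = 0.0277). CHEK1, the checkpoint kinase 1, had 8.39 CPM with tamoxifen against 23.5 CPM with control siRNA (log2 fold change −1.49, SE 0.30, adjusted p = 0.0193), and CDKN2A, the locus of p16 and p14ARF, 2.46 CPM with tamoxifen against 6.51 CPM with control siRNA (log2 fold change −1.40, SE 0.30, adjusted p = 0.0307). These calls rest on 1 pair and on the spread of the other libraries. The TP73, CHEK1 and CDKN2A calls were lost when the T47D-TamR library with control siRNA, with control siRNA plus tamoxifen, with DMSO or with DMSO plus tamoxifen was left out (adjusted p from 0.0856 to 0.144). The log2 fold changes themselves moved little when 1 library outside this pair was left out. They ran from −1.46 to −1.42 for TP73, −1.49 to −1.45 for CHEK1 and −1.40 to −1.36 for CDKN2A. On the deposited log2 TPM values limma called none of the 3 genes (adjusted p from 0.131 to 0.182). With at least 10 counts in every library, TP73 (0.0501) and CDKN2A (0.0503) lost their calls. Between the lines, 13 of 18 regulators (5 higher, 8 lower in BT483) and 25 of 34 other targets (11 higher, 14 lower) were called, shares near the 70.7% of all genes.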

How the data were processed

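For each library the authors deposited unnormalized counts by gene symbol and log2 TPM values, and also a series table of log2 TPM values that was used in one alternative. Poly(A) libraries were made with a stranded kit, per the labels' protocols. The genome build was GRCh38, per the submitters' processing notes; aligner, annotation and strand setting of the counting were not given in the sources used here. Counts were tested with edgeR 4.0.16 (R 4.3.3), with TMM factors of 0.937 to 1.06, filterByExpr, a robust quasi-likelihood fit and its 2-sided F test, adjusted by Benjamini-Hochberg across every gene tested. Each group held 1 library. An additive fit of 11 libraries, blocked by context (the siRNA arm of each line and the drug arm), gave knockdown, tamoxifen and VX-702 effects (5 residual degrees of freedom). A fit per line, a fit with a term for the siRNA, and a fit of only the 8 siRNA libraries, with the condition as block, gave the rest. Lone libraries are thereby assumed to vary like the others, and p-values measure the spread between these libraries. For knockdown, lines and siRNAs act as replicates, for tamoxifen the pairs, and between lines the treatment conditions. The p-values between lines thus measure spread over treatments, not between cultures given the same treatment. All 29 members passed the filter. CPM are TMM-scaled, and the comparisons with DMSO use log2 differences with a prior count of 2 over genes averaging at least 5 CPM. TPM came from the authors' deposited log2 values. Exact intervals and the floor cover counting error only. Of the deposited columns, 0 were left unmapped.

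The members, the lists (p53 family and regulators, other p53 targets, luminal epithelial, fibroblast, leukocyte and endothelial markers, interferon-stimulated genes) and the tests were chosen with earlier results of these data known. NLK came first. Values in every library were given for members called in any test and for the highest and lowest members with an average log2 CPM of at least 1: 5 each in knockdown over both lines, 4 each between lines and 3 each in knockdown per line, the siRNA difference, tamoxifen over all pairs and both comparisons with DMSO. MDM4 and CDKN1A were always given, and other lists by counts, called genes and the 2 highest and 2 lowest with knockdown. One gene of the rule is not reported here. Alternatives were DESeq2 1.42.0, its size factors, limma 3.58.1 on the deposited log2 TPM table, 2 other filters, length adjustment, no context block and leaving out each library. Where a control siRNA library was left out, the knockdown reference of its arm came from its tamoxifen library and the tamoxifen effect of other arms. Length with GC adjustment was chosen after seeing the data. Exon overlaps came from GENCODE 29, and promoters from RefSeq on GRCh38.p14.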

Additional observations from a re-analysis of the deposited data

How the results depend on the processing

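By replicate number, no paired analysis was possible because each group held 1 library. The blocks in the tests, condition between lines and line and arm elsewhere, match libraries by design. The count of members called stayed at 0 for knockdown, tamoxifen and the siRNA difference under the alternatives, with these exceptions: 1 member in BT483 with tamoxifen under DESeq2 and between 0 and 1 when libraries were left out (TP53I3 each time), and, without the low-count filter, 1 each for knockdown over both lines and in T47D-TamR (GDF15) and for tamoxifen in BT483 and its difference between lines (TP53I3). Control siRNA against DMSO had 1 member past 1.5-fold on the deposited log2 TPM values, BTG2, in place of 2. Between lines, RRM2B, MDM2 or BTG2 passed under some settings, each time higher in BT483. DDB2 lost its call without either tamoxifen library of the siRNA arms. The cause of these changes was not tested. TIGAR and SPATA18 were not tested with at least 10 counts in every library.

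Signs turned for small or unread values. In knockdown over both lines, length and GC adjustment gave 0.091 for MDM2, 0.031 for CCNG1 and 0.075 for FBXW7. Leaving out 1 library at a time gave RRM2B from −0.40 to 0.081, MDM2 from −0.20 to 0.017, CCNG1 from −0.21 to 0.089 and FBXW7 from −0.18 to 0.11, with the highest of each without the T47D-TamR control siRNA library. In T47D-TamR, RRM2B ran from −0.54 to 0.000354, SPATA18 from 0 to 3.05 and TIGAR from −0.023 to 3.68. In the siRNA difference TIGAR ran from −1.24 to 0.052. With tamoxifen over all pairs SPATA18 ran from −0.46 to 2.10, positive where the BT483 pair, the 1 pair with over 1 count, was broken.

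Counts of called genes over all genes also moved under the alternatives, whose range is given in brackets. They come from a far larger set, so they are not compared with those of the members. For knockdown, 1 gene was called over both lines (0 to 249), 1 in BT483 (0 to 163) and 1 in T47D-TamR (0 to 108). The knockdown difference between lines had 0 (0 to 21) and the siRNA difference 113 (0 to 406). For tamoxifen, 10 were called over all pairs (0 to 513), 357 in BT483 (9 to 670) and 53 in T47D-TamR (0 to 354). The tamoxifen difference between lines had 166 (0 to 502). The highest of each came without the low-count filter, except for the siRNA difference (without the BT483 tamoxifen library). Depth limits TP53I3 and FAS in BT483, and GDF15, TIGAR, EDA2R and SPATA18 in T47D-TamR.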
